A study of Mus musculus with 24 samples.

Results

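Loss of Myd88 was compared with wild type in CD11c+ dendritic cells of the mesenteric lymph node (MLN) from tumour-bearing mice that had all received an antibody against PD-1 together with the oral bacterium LGG (Lactobacillus rhamnosus GG). The members were the 6 RNA libraries of this treatment, 3 labelled wild type and 3 labelled Myd88 knockout, of 24 libraries in all. The other libraries came from the same genotypes under control IgG, anti-PD-1 alone or LGG alone. All mice were described as C57BL/6 females aged 6 to 8 weeks that carried MC38 colon tumour cells under the skin. Both groups of the comparison received 200 µg of anti-PD-1 per mouse at each injection and live LGG by mouth, and both were sorted with magnetic beads that bind CD11c. The knockout is not described as limited to a cell type, mice were pooled before they were assigned to treatments, and the labels do not say that replicates came from separate animals. A p-value therefore measures only the spread between libraries labelled as replicates, which may be technical. In the model used below this spread was taken from all 24 libraries, so its standard errors are not the scatter of the 6 compared alone. The model of all libraries called 7401 genes, against 9898 in a fit of the 6 libraries alone. Genes were taken by symbol, and 8 genes of the sex chromosomes were left out, which kept 12759 of 12767 listed genes.

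Myd88 is the adaptor protein that couples most Toll-like receptors and the receptors of the interleukin-1 family to the IRAK kinases, TRAF6 and the transcription factor NF-kB. Toll-like receptor 4 can also signal through a separate adaptor, TRIF, which leads to type I interferon. Toll-like receptor 3 signals through TRIF and not through Myd88. In dendritic cells these routes switch on inflammatory cytokines, costimulatory molecules and the programme of migration and maturation with which the cells prime T cells in lymph nodes. LGG is a Gram-positive bacterium whose cell wall and DNA are known ligands of Toll-like receptors 2 and 9.

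The labels and the data disagreed on one point. All mice were labelled female, yet the summed signal of 4 Y-linked genes was 3845, 3729 and 3667 normalised counts in the knockout libraries and 1.05, 6.74 and 2.19 in the wild-type libraries. Across the 12 knockout libraries of all treatments this sum ranged from 3060 to 4857, and across the 12 wild-type libraries from 0.940 to 10.4. The sex of the source and the genotype therefore cannot be told apart in any comparison below. Reads assigned to listed genes ranged from 25864666 to 28440582 per wild-type library and from 28179103 to 34685615 per knockout library. On the first principal component of all 24 libraries, which held 64.3% of the variance, the wild-type libraries lay between 106.7 and 108.8 and the knockout libraries between -27.9 and -25.2. Replicates differed from each other by more than counting noise, with chi-square values per gene from 1.99 to 12.9, which does not show whether they came from separate animals. The highest values, 10.8 and 12.9, both involved wild-type replicate 1. Wild-type replicates 2 and 3 gave 1.99, and the pairs of knockout libraries gave 2.85 to 4.46.

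Myd88 transcripts (ENSMUSG00000032508, chr9:119335934-119341411, build mm10) read 1919, 1723 and 1819.8 normalised counts in wild type and 748, 758 and 742 in knockout. Each knockout library was more than 2-fold below the lowest wild-type library, and reads from the gene remained in all of them. The difference was -1.28 ± 0.19 on the log2 scale (knockout minus wild type, ± standard error of the model; adjusted p = 7.7e-06 by limma with Benjamini-Hochberg adjustment). Counts over a whole gene do not show whether a deleted stretch was read, so the libraries are called knockout by their label.

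Most genes differed between the genotypes. Of 12741 genes tested, 7401 (58.1%) passed an adjusted p of 0.05, 3869 (30.4%) of them higher in knockout and 3532 (27.7%) lower. A difference over 2-fold was called for 3445 genes (27.0%), of which 1498 (11.8%) were higher and 1947 (15.3%) lower. The libraries of the groups did not overlap for 10113 genes (79.4%). The median log2 difference over all genes tested was 0.02 and the median size was 0.53, and every count of a gene list below is to be read against these shares. Differences over 8-fold were rarer, at 146 higher genes (1.15%) and 375 lower genes (2.94%). The lists were chosen with results of these data known, so their counts describe the data and were not tested.

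**Figure D1:**
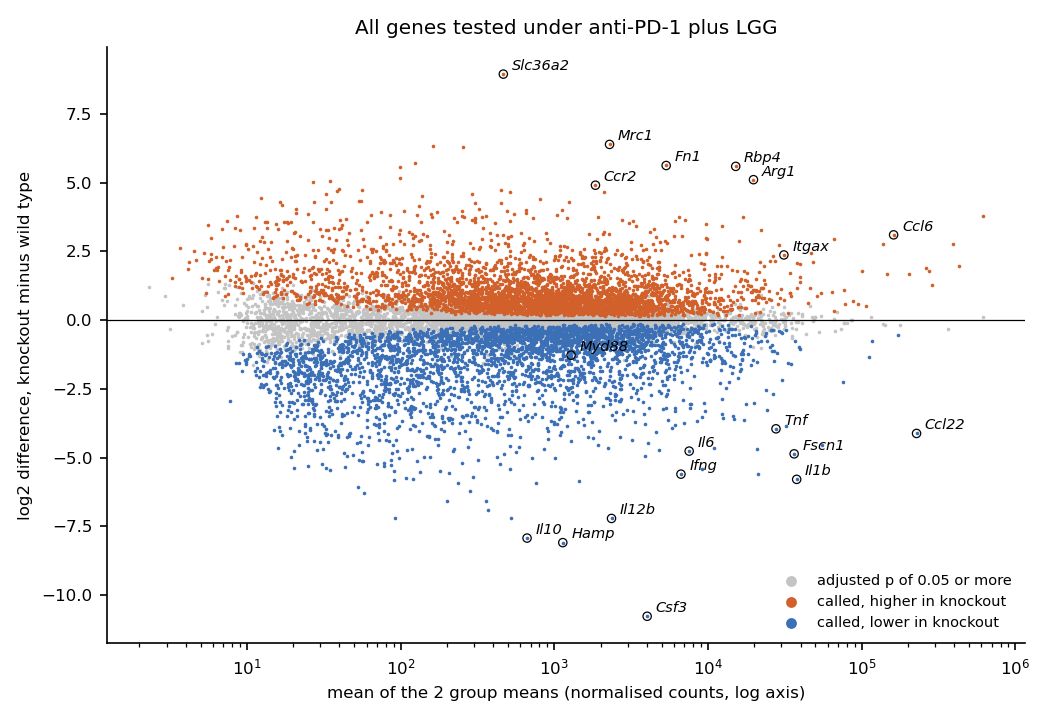
Each point is 1 of the genes tested, with the mean of the 2 group means in normalised counts on the x axis (log scale) and the log2 difference of knockout minus wild type under anti-PD-1 plus LGG on the y axis; coloured points passed an adjusted p of 0.05 by limma and circles mark named genes. Csf3 lies lowest at -10.77 and Slc36a2 highest at 8.94, and the called genes fall on both sides of 0.

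Among the genes that fell the most, Csf3, which encodes the granulocyte growth factor G-CSF, read 8744, 7729 and 7622 normalised counts in wild type and 1.91, 3.88 and 5.86 in knockout. No knockout library reached the level of any wild-type library, and the log2 difference was -10.77 ± 0.56, adjusted p = 2.7e-12 by limma. Hamp, which encodes the iron hormone hepcidin, read 2513, 2085 and 2192 in wild type and 4.77, 9.71 and 8.20 in knockout, and the 3 knockout libraries were again far below wild type (-8.09 ± 0.61, adjusted p = 7.4e-10 by limma). Enpp2, the enzyme autotaxin, read 955, 1068 and 1073 in wild type and 3.82, 14.6 and 3.51 in knockout. Itgb8, an integrin chain, read 641, 769 and 788 in wild type and 2.86, 7.76 and 5.86 in knockout. All knockout libraries of Enpp2 and Itgb8 held at most 14.6 normalised counts, against at least 641 in every wild-type library. Btla, a receptor that dampens lymphocyte and dendritic cell responses, read 408, 396 and 392 in wild type and 4.77, 2.91 and 2.34 in knockout, and its difference was -6.56 ± 0.53, adjusted p = 1.8e-09 by limma. Zfp366, a transcriptional regulator, fell by 6.20 on the log2 scale and Tnfsf15, a cytokine of the tumour necrosis factor family, fell by 6.58.

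For the others among the largest falls almost no reads were left in knockout. Barx1, a homeobox gene, had 505 reads over the wild-type libraries and 1 over the knockout libraries, a ratio of 538 with a 95% counting interval of 96.1 to 21276 that covers counting error only. Plat, the tissue plasminogen activator, had 316 reads against 2, a ratio of 168 (46.2 to 1395). Lzts1 had 290 reads against 2, a ratio of 154 (42.3 to 1281).

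The largest rise belonged to Slc36a2, a transporter of small amino acids, with 3 reads over the wild-type libraries and 2727 over the knockout libraries. The ratio was 854 with a 95% counting interval of 292 to 4143. Mrc1, the mannose receptor CD206 of tissue macrophages, read 60.9, 57.3 and 42.8 normalised counts in wild type and 4589, 4509 and 4466 in knockout. The groups were far apart, and the log2 difference was 6.39 ± 0.21, adjusted p = 2.0e-15 by limma. Fn1, which encodes the matrix protein fibronectin, read 177, 229 and 234 in wild type and 10806, 10469.6 and 10134 in knockout (5.62 ± 0.18, adjusted p = 1.9e-15 by limma). Rbp4, the carrier of retinol in plasma, read 664, 629 and 559 in wild type and 29177, 29571 and 30267 in knockout (5.59 ± 0.20, adjusted p = 1.1e-14 by limma). The knockout means of Mrc1, Fn1 and Rbp4 were 84.2, 49.0 and 48.1 times those of wild type, with no overlap. Clec4b1 (a lectin receptor), Fbp1 (a gluconeogenic enzyme), Slc27a6 (a fatty acid transporter), Mamdc2 and Sh2d6 rose by 6.33, 6.29, 5.71, 5.15 and 5.04 on the log2(value + 1) scale, and each held at most 11.0 normalised counts in any wild-type library. Igsf11 had 3 reads in wild type and 154 in knockout, a ratio of 48.2 (16.2 to 236).

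Receptors of the Toll-like family, which recognise microbial molecules, did not move as one. Of 16 measured genes of the family and its helpers, 8 were higher in knockout, 4 lower and 4 did not pass, with a median of 0.26. Tlr2, the receptor for bacterial lipoproteins, read 2787, 2861 and 2927 normalised counts in wild type and 2789, 2695 and 2728 in knockout. The groups lay close together and the difference of -0.06 ± 0.06 did not pass (adjusted p = 0.39 by limma). Tlr9, the receptor for bacterial DNA, read 296, 384 and 324 in wild type and 151, 148 and 129 in knockout. Its knockout libraries were all below wild type, but the difference of -1.22 ± 0.61 did not pass in the model of all libraries (adjusted p = 0.094 by limma), whereas it passed with edgeR (-1.26, adjusted p = 0.047), with DESeq2 (-1.25, adjusted p = 0.034) and in a limma fit of the 6 libraries alone (adjusted p = 1.7e-08). Tlr8, a sensor of RNA in endosomes, read 14.7, 19.1 and 27.4 in wild type and 307, 296 and 286 in knockout, and rose by 3.84 on the log2 scale. Tlr7 and Tlr13, also sensors of RNA, rose by 1.52 and 2.03, and Unc93b1, the chaperone that carries these receptors to endosomes, rose by 1.52. Tlr4, the receptor for lipopolysaccharide, rose by 1.27, while its coreceptor Cd14 fell: it stood at 25481 ± 1406 in wild type and 7008 ± 179 in knockout (SD, n = 3 in each group), a log2 difference of -1.86 ± 0.12, adjusted p = 7.3e-11 by limma. Tlr1, a partner of Tlr2, fell by 1.28.

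The list of the interleukin-1 receptor family also held the secreted inhibitors Il1rn and Il18bp. Of its 10 measured genes 7 were lower in knockout, 1 was higher and 2 did not pass, with a median of -1.03. The chains of the interleukin-18 receptor, Il18r1 and Il18rap, differed by -4.75 ± 0.35 and -2.95 ± 0.18, and Il1rn, the secreted antagonist of interleukin-1, by -1.48 ± 0.15. Il1rl2, a chain of the interleukin-36 receptor, rose by 1.66. Il18r1 and Il18rap are also expressed by T and natural killer cells, and markers of those cells were lower in knockout as well, at 24499 to 25119 normalised counts per wild-type library and 6564 to 6756 per knockout library for the summed T cell markers. Their part in this result was not tested.

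The signalling genes downstream of the receptors moved in both directions. Of 25 measured genes, 5 were higher, 10 lower and 10 did not pass, with a median of -0.24. Apart from Myd88, the largest falls were in Map3k8, a kinase that activates the ERK pathway (-1.71 ± 0.12), Peli1, a ubiquitin ligase (-1.40 ± 0.12), Tab2, which recruits the kinase TAK1 (-1.15 ± 0.12), and Traf6, the ubiquitin ligase after the IRAK kinases (-1.09 ± 0.13). Ticam2, the bridging adaptor of TRIF, rose by 1.56. Ticam1, which encodes TRIF itself, read 1490.4, 1310.3 and 1358 normalised counts in wild type and 1043, 1038 and 929.9 in knockout, a small fall of -0.47 ± 0.08, adjusted p = 7.2e-05 by limma, and Irak3, an inhibitory member of the IRAK family, fell by 0.44. Tbk1, the kinase shared by TRIF and DNA sensing, read 2938, 3234 and 3099.8 in wild type and 3194, 3036 and 3150.4 in knockout and did not differ beyond its spread (0.02 ± 0.13, adjusted p = 0.92 by limma), with a sign that turned under TMM scaling (-0.01). Irf3 and Irf5, transcription factors of interferon and cytokine genes, differed by 0.04 ± 0.22 and 0.02 ± 0.06 and did not pass.

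NF-kB genes were mostly lower. Of 22 measured subunits, inhibitors and feedback regulators, 20 were lower in knockout, none was higher and 2 did not pass, with a median of -1.27, where 27.7% of all genes were called lower. Many of these genes are themselves induced by NF-kB. Nfkbia, the inhibitor IkB-alpha, read 18743, 19069 and 18747 normalised counts in wild type and 5223, 5370.2 and 5316 in knockout. All knockout libraries lay below all wild-type libraries, with a difference of -1.83 ± 0.13, adjusted p = 1.8e-10 by limma. Traf1, an adaptor of tumour necrosis factor receptors, differed by -3.01 ± 0.13, Nfkbiz, a nuclear cofactor needed for Il6 and Il12b, by -2.82 ± 0.21, and the subunits Nfkb2 and Rel by -2.24 ± 0.09 and -1.98 ± 0.15. The subunit Rela fell less, by 0.62, and Tnip3 (-0.03 ± 0.07, adjusted p = 0.72 by limma) did not pass.

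The promoters of Il12b, Il6, Tnf, Nfkbia, Cxcl10 and Ifit1 were searched for 2 motifs, and sequences are shown only for the 4 that held a match. These belong to an NF-kB target that encodes a cytokine (Il6), the NF-kB inhibitor Nfkbia, the chemokine Cxcl10 and the interferon-induced Ifit1. Each is the 250 bases before the annotated start, 5′ to 3′ on the gene's strand, from RefSeq on GRCm38.p6, with matches in capitals. Motifs were GGGANNTTC, part of a kappa B site, and GAAANNGAA, part of an interferon response element, searched on both strands.
Il6: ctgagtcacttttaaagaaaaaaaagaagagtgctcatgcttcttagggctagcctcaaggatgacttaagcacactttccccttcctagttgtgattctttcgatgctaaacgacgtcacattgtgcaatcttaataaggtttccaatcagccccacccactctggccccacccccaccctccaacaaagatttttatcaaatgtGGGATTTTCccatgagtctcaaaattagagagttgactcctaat
Nfkbia: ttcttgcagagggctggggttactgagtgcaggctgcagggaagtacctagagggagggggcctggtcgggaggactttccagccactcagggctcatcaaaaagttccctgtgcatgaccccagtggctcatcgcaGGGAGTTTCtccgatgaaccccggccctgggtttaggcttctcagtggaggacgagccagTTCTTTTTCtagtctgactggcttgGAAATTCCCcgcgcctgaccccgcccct
Cxcl10: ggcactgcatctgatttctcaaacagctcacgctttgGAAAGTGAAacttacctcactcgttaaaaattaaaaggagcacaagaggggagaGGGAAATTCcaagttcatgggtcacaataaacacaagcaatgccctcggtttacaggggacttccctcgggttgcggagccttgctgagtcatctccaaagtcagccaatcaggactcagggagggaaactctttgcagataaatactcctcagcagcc
Ifit1: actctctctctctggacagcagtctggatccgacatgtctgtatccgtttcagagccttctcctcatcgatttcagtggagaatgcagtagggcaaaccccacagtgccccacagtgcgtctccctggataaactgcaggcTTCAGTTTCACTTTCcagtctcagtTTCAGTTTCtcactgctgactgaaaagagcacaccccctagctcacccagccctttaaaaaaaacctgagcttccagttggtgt
They lie at chr5:30012864-30013113 (plus strand), chr12:55492648-55492897 (minus), chr5:92348890-92349139 (minus) and chr19:34640639-34640888 (plus). In Il6 the capitals mark 1 kappa B match at -44 to -36, counted from -1 at the last base before the start. Nfkbia held kappa B matches at -113 to -105 and -28 to -20 and an interferon match between them at -53 to -45. Cxcl10 held an interferon match at -213 to -205 and a kappa B match at -159 to -151. Ifit1 held 3 interferon matches, at -109 to -101, -103 to -95 and -84 to -76, of which the first 2 overlap. The windows of Il12b and Tnf, searched in the same way, held no match to these letters, which says nothing about other forms of the sites.

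Across all 27025 promoters of the table, 3.17% held a kappa B match and 7.16% an interferon match. Among the promoters of genes tested here, 10052 were found by symbol, with shares of 3.05% and 6.62%. For genes over 8-fold lower in knockout, 11 of 277 promoters (3.97%) held a kappa B match and 43 (15.5%) an interferon match. For genes over 8-fold higher, 4 of 107 (3.74%) and 19 (17.8%) did. At over 2-fold the interferon shares were nearer that of all genes tested, at 140 of 1467 promoters (9.54%) of lower genes and 91 of 1170 (7.78%) of higher genes. These splits by fold were added after the values were seen and were not tested. A match is a description of letters and not a bound site.

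Most genes of secreted cytokines were lower in knockout. Of 29 measured genes, 25 were lower in knockout, 2 were higher and 2 did not pass, with a median of -3.01. Il1b, the main inflammatory form of interleukin-1, read 75237, 73029.7 and 74151 normalised counts in wild type and 1446, 1327 and 1253 in knockout. The groups did not overlap, and wild type was 55.3 times knockout (-5.79 ± 0.12, adjusted p = 4.9e-18 by limma). Il6 read 14588, 14193 and 14849 in wild type and 547, 499 and 559.8 in knockout (-4.76 ± 0.08, adjusted p = 1.8e-19 by limma). Tnf read 55927, 49484 and 50595 in wild type and 3248, 3331 and 3485 in knockout (-3.95 ± 0.15, adjusted p = 3.5e-14 by limma). For each of these 3 cytokines every wild-type library was more than 10 times every knockout library.

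The genes of the interleukin-12 family, with which dendritic cells direct T helper and cytotoxic responses, fell together. Il12b, the subunit shared by interleukin-12 and interleukin-23, read 4244, 4747 and 5046 normalised counts in wild type and 29.6, 20.4 and 46.8 in knockout. Wild type was 145 times knockout, and the log2 difference was -7.21 ± 0.39, adjusted p = 4.5e-12 by limma. Il12a, the partner in interleukin-12, read 1051, 978 and 1010.2 in wild type and 20.1, 23.3 and 25.8 in knockout. Il23a, the partner in interleukin-23, read 392, 454 and 435 in wild type and 16.2, 15.5 and 15.2 in knockout. Il12a and Il23a differed by -5.41 ± 0.49 and -4.68 ± 0.33, with no overlap between the groups. Il27 and Ebi3, which form interleukin-27, differed by -3.75 ± 0.21 and -1.62 ± 0.20.

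The inhibitory cytokine Il10 fell with the inflammatory ones. It read 1470.4, 1272 and 1231 normalised counts in wild type and 1.91, 8.74 and 4.68 in knockout, a log2 difference of -7.92 ± 0.46, adjusted p = 1.5e-11 by limma. Il1a read 35535, 34779 and 35549.5 in wild type and 4511, 4259 and 4361 in knockout and fell by 3.01 on the log2 scale. Growth factors went in different directions: Csf2, which encodes GM-CSF, differed by -3.13 ± 0.18, while Csf1, the macrophage growth factor, read 4811, 4999.6 and 4932 in wild type and 12567, 12519.5 and 12413 in knockout and rose (1.35 ± 0.07, adjusted p = 4.6e-12 by limma). Tnfsf13b, the B cell factor BAFF, rose by 1.34, and Tgfb1 (0.45 ± 0.22, adjusted p = 0.083 by limma) did not pass. Il19 had 112 reads in wild type and none in knockout. With 3 reads for the whole group taken as the floor, it was 39.7-fold lower in knockout. The 95% counting interval of its ratio began at 31.8 and had no upper limit. With Il19 at that floor in place of its fitted value the median of the list stays at -3.01, since the gene lies below it either way. Ifnb1, a type I interferon, was low in both groups at 35.7, 37.1 and 50.5 in wild type and 15.3, 13.6 and 16.4 in knockout. It fell by 1.37 (adjusted p = 0.016 by limma), and without wild-type replicate 3 the fall of 1.22 did not pass (adjusted p = 0.061 by limma).

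**Figure D2:**
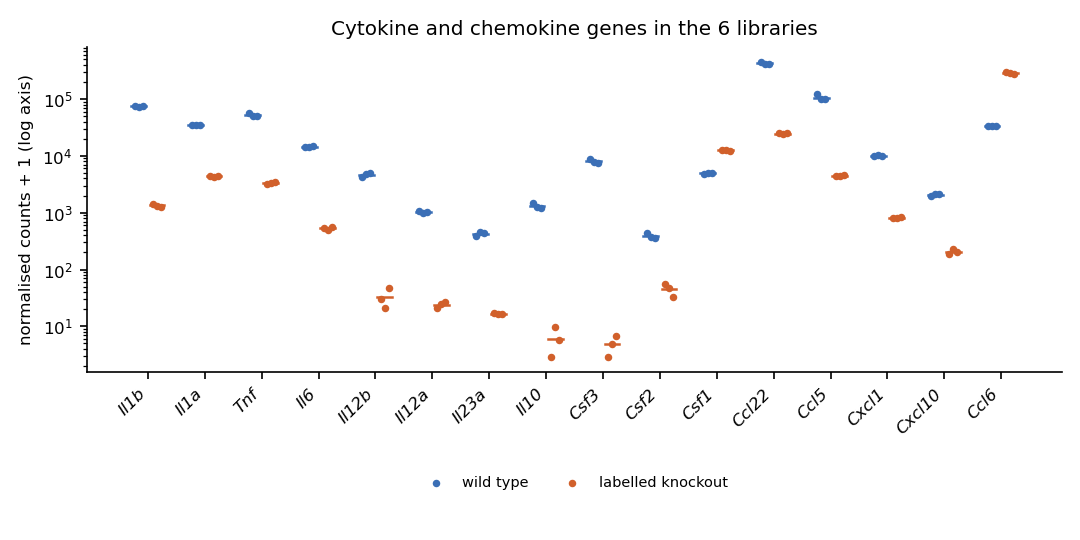
Each point is 1 library and each bar a group mean, in normalised counts plus 1 on a log axis, for 16 cytokine and chemokine genes in wild type (blue) and knockout (orange) under anti-PD-1 plus LGG. The 3 libraries of a group lie together, and knockout is below wild type for every gene shown but Csf1 and Ccl6.

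Chemokines divided into those that fell and a smaller set that rose. Of 26 measured, 15 were lower in knockout, 6 higher and 5 did not pass, with a median of -1.53. Ccl22, which attracts T cells through Ccr4, read 452438, 417915 and 419640.2 normalised counts in wild type and 24978, 24351 and 24787 in knockout. Knockout was lower in every library, by -4.12 ± 0.18, adjusted p = 1.6e-13 by limma. Ccl5 read 120786, 99317 and 98479 in wild type and 4385, 4392 and 4688 in knockout and Cxcl1, an attractant of neutrophils, read 10090.1, 10235 and 9995 in wild type and 800.1, 816 and 832 in knockout, and they differed by -4.56 ± 0.35 and -3.63 ± 0.11. Cxcl9 and Cxcl10, the interferon-induced chemokines for T cells, read 196, 189.9 and 181 in wild type and 5.73, 2.91 and 7.03 in knockout and 2003, 2133 and 2119 in wild type and 185, 226 and 200.3 in knockout. Both were lower in all knockout libraries, by -5.00 ± 0.53 and -3.35 ± 0.16.

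Ccl6 rose, standing at 33677 ± 265 in wild type and 288767 ± 15793 in knockout (SD, n = 3 in each group), a difference of 3.10 ± 0.16, adjusted p = 1.7e-12 by limma. Cxcl14 read 23.1, 19.1 and 24.1 in wild type and 570.0, 509.6 and 593 in knockout and Ccl24, an attractant of eosinophils, 9669, 7854 and 8083 in wild type and 23764, 23909 and 24599.7 in knockout. Ccl9, Pf4 and Ccl8 also rose, by 1.01, 0.92 and 1.33. Ccl17, the other ligand of Ccr4, read 92826, 78655 and 79174 in wild type and 76293, 74333 and 79863 in knockout, and its difference of -0.12 ± 0.36 did not pass (adjusted p = 0.80 by limma), so that the Ccr4 ligands Ccl22 and Ccl17 gave unlike values.

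Of 15 chemokine receptors measured, 9 were lower, 3 higher and 3 did not pass, with a median of -0.98. Ccr7, which guides dendritic cells and T cells into lymph nodes, read 61938, 60053 and 59424 normalised counts in wild type and 4140.0, 4143 and 4194 in knockout. The difference was -3.86 ± 0.17, adjusted p = 2.3e-13 by limma, with no overlap. Ccr2, which brings monocytes out of the bone marrow, read 118, 133 and 107 in wild type and 3543, 3541 and 3672 in knockout and moved in the opposite direction (4.90 ± 0.11, adjusted p = 8.0e-18 by limma). Ccr1, a receptor of Ccl3 and Ccl5 on myeloid cells, rose by 1.00. Ccr4 and Ccr8, receptors best known on T cells, differed by -4.31 ± 0.38 and -4.25 ± 0.38.

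Genes of the migratory, mature state of dendritic cells had the lowest median of the lists, -3.17. Of 22 measured, 19 were lower in knockout, 1 was higher and 2 did not pass. Fscn1, the actin-bundling protein of dendrites, read 75334, 68721 and 66706 normalised counts in wild type and 2252, 2426 and 2565 in knockout. All knockout libraries were below all wild-type libraries, with a difference of -4.86 ± 0.16, adjusted p = 1.9e-15 by limma. Cacnb3, Marcksl1 and Serpinb6b, which mark the same state, differed by -3.65 ± 0.08, -3.60 ± 0.15 and -4.48 ± 0.12. Fabp5 (0.04 ± 0.22) and Ccl17 did not pass, and Cd63, a tetraspanin of lysosomes, rose by 1.55.

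Costimulatory genes and ligands of checkpoint receptors were mostly lower. Of 22 measured, 17 were lower, 3 higher and 2 did not pass, with a median of -1.11. Cd86, a ligand of CD28 on T cells, read 15082, 15911 and 15917 normalised counts in wild type and 1331, 1193 and 1154 in knockout. Its partner Cd80 read 4319.8, 4727 and 4773 in wild type and 459, 454 and 453 in knockout, and Cd40, through which helper T cells activate dendritic cells, read 11700.2, 11412 and 11052 in wild type and 771, 799.8 and 872 in knockout. These 3 genes were lower in every knockout library, by -3.67 ± 0.07, -3.33 ± 0.09 and -3.81 ± 0.20. Slamf1 and Cd70, ligands for T cells, differed by -4.93 ± 0.14 and -4.21 ± 0.70.

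Ligands and target of the antibody given to both groups differed in size. Cd274, which encodes PD-L1, read 31746, 34493 and 35095 normalised counts in wild type and 18287, 18352 and 17381 in knockout, lower in all knockout libraries by less than 1 on the log2 scale (-0.91 ± 0.15, adjusted p = 4.0e-05 by limma). Pdcd1lg2, which encodes PD-L2, read 5624, 5340.1 and 5262 in wild type and 5134, 5019.8 and 5221 in knockout, and did not pass (-0.08 ± 0.08, adjusted p = 0.45 by limma). Pdcd1, the PD-1 gene itself, read 119.7, 151 and 146 in wild type and 5.73, 5.82 and 5.86 in knockout (-4.35 ± 0.32, adjusted p = 5.1e-10 by limma). PD-1 is chiefly a gene of T cells, and 22 of 24 T cell markers were lower in knockout too. The summed signal of these markers was 24499 to 25119 normalised counts per wild-type library and 6564 to 6756 per knockout library, and its part in the Pdcd1 difference was not tested. Vsir, which encodes the checkpoint protein VISTA, rose by 1.15.

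Interferon genes were lower as a group. Of 36 measured genes of the type I interferon response, 34 were lower in knockout, none was higher and 2 did not pass, with a median of -1.50. Irf7, which amplifies type I interferon, read 12025, 10780.2 and 9939 normalised counts in wild type and 1196, 1141 and 1260.1 in knockout. Isg15, a ubiquitin-like protein induced by interferon, read 14647, 13281 and 13359 in wild type and 1702, 1587 and 1722 in knockout. Both were lower in all knockout libraries, by -3.18 ± 0.17 and -3.04 ± 0.20. Mx1 and Ifit1, antiviral effectors, differed by -2.79 ± 0.17 and -2.46 ± 0.26, while Rtp4 and Oas1a fell by only 0.23 and 0.30.

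All 20 measured genes of the interferon-gamma response were lower in knockout, with a median of -2.10. Nos2, the inducible nitric oxide synthase, read 39238, 40579 and 39945 normalised counts in wild type and 1522, 1639 and 1548 in knockout, lower in every knockout library (-4.67 ± 0.08, adjusted p = 3.9e-19 by limma). Gbp5 and Iigp1, guanosine triphosphatases that act against intracellular microbes, differed by -3.76 ± 0.19 and -3.69 ± 0.17, and Irf1, a transcription factor of this response, by -1.76 ± 0.09. Cxcl11, also of this list, had 109 reads in wild type and 2 in knockout, a ratio of 58.0 (15.7 to 485). Ifng itself, a product of T and natural killer cells, read 13684, 12776 and 12726 in wild type and 269, 259 and 276 in knockout (-5.60 ± 0.18, adjusted p = 2.2e-15 by limma). Markers of natural killer and cytotoxic cells moved with it, with a summed signal of 71399 to 73510.5 normalised counts per wild-type library and 11677 to 12326 per knockout library, and their part in the interferon-gamma result was not tested. In bulk samples such as these, fewer cells of a type and less RNA per cell cannot be told apart.

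Sensors of DNA and RNA inside the cell were less uniform, with 9 of 15 measured genes lower, 2 higher and 4 not passing, and a median of -0.57. Cgas, the cytosolic DNA sensor, read 467, 547 and 535 normalised counts in wild type and 507, 534 and 445 in knockout. The groups overlapped in level and the difference of -0.06 ± 0.34 did not pass (adjusted p = 0.89 by limma); its sign turned without knockout replicate 3 (0.01). Tmem173, which encodes the adaptor STING, read 5021, 5019 and 4926 in wild type and 4095, 4047 and 4022 in knockout and fell by 0.30 (adjusted p = 0.0055 by limma). Ifi205, a member of the interferon-induced p200 family, fell by 4.24, and Dnase2a, which degrades DNA in lysosomes, rose by 2.21.

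Antigen presentation differed between the classes. For class I, 14 of 22 measured genes were lower, 1 higher and 7 did not pass, with a median of -0.68. Nlrc5, the activator of class I genes, and Tap1, the peptide transporter, differed by -1.46 ± 0.18 and -1.10 ± 0.08, and H2-K1 by -0.54 ± 0.13, while H2-D1 and B2m did not pass. Class II genes gave 6 higher, 6 lower and 5 not passing of 17, with a median of 0.10. The class II activator Ciita and the modulators H2-Oa and H2-DMb2 differed by -1.33 ± 0.33, -2.34 ± 0.23 and -1.91 ± 0.22, whereas H2-Ab1 (-0.12 ± 0.19), H2-Aa (-0.34 ± 0.19) and Cd74 (0.10 ± 0.29) did not pass. The lysosomal proteases Ctss, Ctsl and Lgmn, which trim antigens and the invariant chain, rose by 1.77, 2.14 and 2.13. H2-Q6 and H2-Q7 are near-identical copies, and reads could be split between them.

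Genes of uptake were mostly higher in knockout. Of 17 C-type lectin receptors, which bind sugars on microbes and dying cells, 12 were higher in knockout, 4 lower and 1 did not pass, with a median of 2.10, where 30.4% of all genes were called higher. Mgl2, a galactose-binding lectin, read 2435, 2300.3 and 2297 normalised counts in wild type and 32056, 30380.1 and 31146 in knockout. Clec7a, the receptor Dectin-1 for fungal glucans, read 17998, 17994 and 18455 in wild type and 80469.9, 75946 and 76331 in knockout. Clec4a2, an inhibitory lectin, read 165, 153 and 157 in wild type and 4162, 3806 and 4143 in knockout. The knockout libraries of these 3 genes were all above wild type, by 3.73 ± 0.10, 2.10 ± 0.07 and 4.66 ± 0.17. Clec9a, which cross-presenting dendritic cells use to sense dead cells, rose by 3.96, standing at 29.8 ± 6.49 in wild type and 473 ± 17.8 in knockout (SD, n = 3). Ly75, the receptor DEC-205 of dendritic cells, and Clec4e, the receptor Mincle, were lower, by -1.67 ± 0.20 and -0.85 ± 0.08.

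Scavenger and phagocytic receptors gave 18 higher, 1 lower and 2 not passing of 21, with a median of 1.56. Trem2, a lipid receptor of macrophages, read 2458, 2106 and 2012 normalised counts in wild type and 16174, 17286 and 18039 in knockout. Cd36, a receptor for oxidised lipids, read 7372, 7534 and 7776 in wild type and 52267, 49948 and 49575 in knockout, and Itgam, the integrin CD11b, read 1417, 1428 and 1461 in wild type and 13083, 11553 and 11711 in knockout. All 3 were higher in each knockout library, by 2.97 ± 0.26, 2.74 ± 0.10 and 3.07 ± 0.16. Marco, a scavenger receptor, was the 1 that fell (-1.77 ± 0.30). Of 12 complement genes, 8 were higher, 1 lower (Cfb, -1.71 ± 0.57) and 3 did not pass, with a median of 1.36. C1qa, C1qb and C1qc, the chains that start the classical pathway, rose by 1.79, 1.12 and 1.60, and C3 (0.24 ± 0.12, adjusted p = 0.10 by limma) did not pass.

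**Figure D3:**
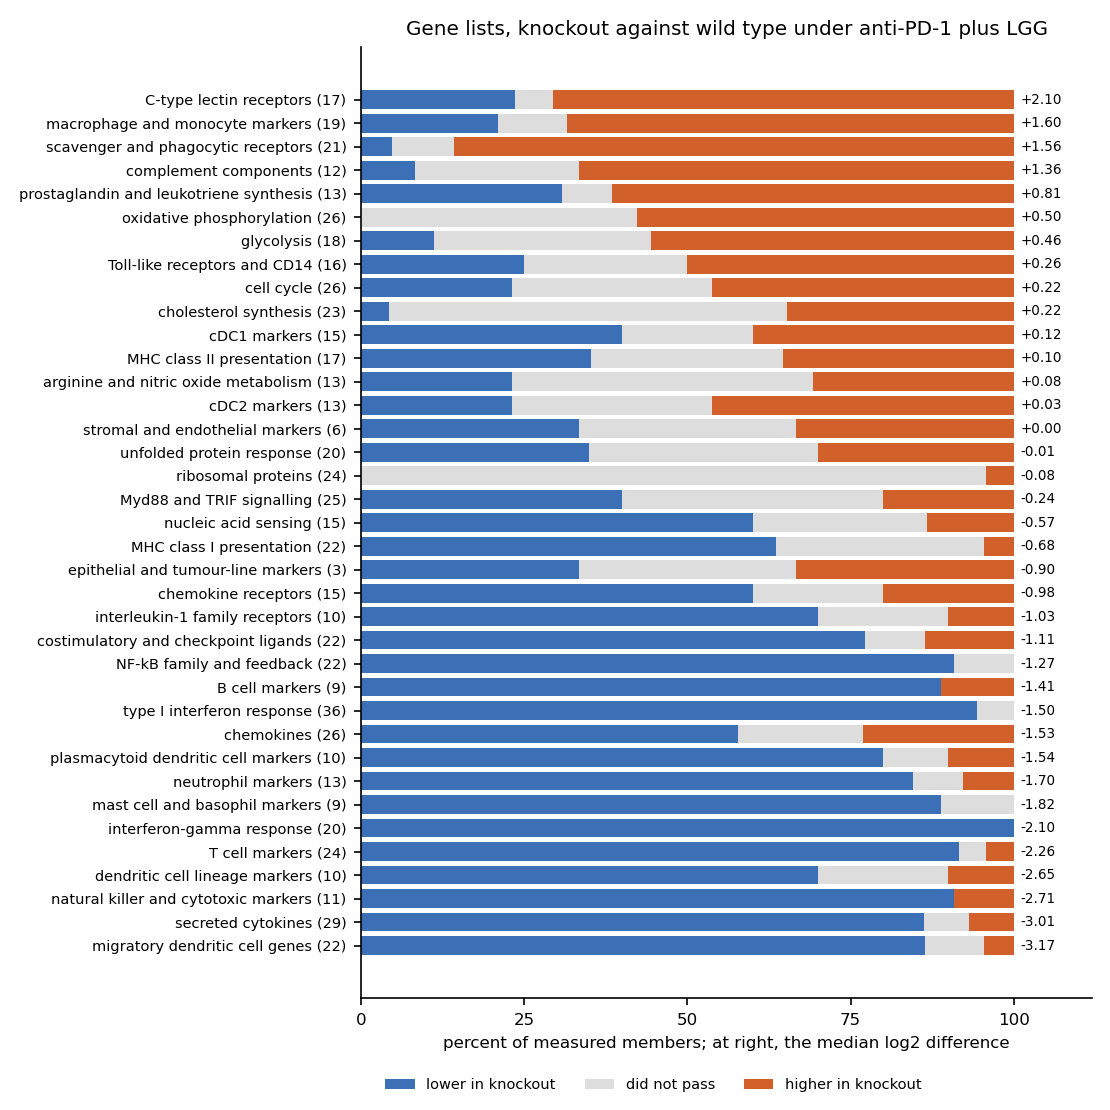
Bars show, for each gene list, the percent of measured members (number in brackets) that were lower in knockout, did not pass or were higher at an adjusted p of 0.05 by limma under anti-PD-1 plus LGG; the number at right is the median log2 difference. Cytokines and migratory dendritic cell genes lie at the bottom with medians of -3.01 and -3.17, and C-type lectins at the top with 2.10.

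Arginine can be used by Nos2 to make nitric oxide or by arginase to make urea and ornithine, and Arg1, an arginase, moved against Nos2. It read 1082, 1113 and 1152 normalised counts in wild type and 39426, 37759 and 37997 in knockout, with a knockout mean 34.4 times that of wild type and no overlap (5.10 ± 0.15, adjusted p = 4.5e-16 by limma). Nos2, given above, fell by 4.67. Ass1, which remakes arginine, rose by 1.95, and Arg2, the other arginase, and Odc1, the enzyme after arginase, fell like Nos2, by 1.62 and 1.31. Of 13 measured genes of this metabolism 4 were higher, 3 lower and 6 did not pass, with a median of 0.08.

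Prostaglandin genes showed a similar exchange between isoforms. Ptgs2, the inducible cyclooxygenase COX-2, read 38358, 42069 and 44001 normalised counts in wild type and 876, 892 and 827 in knockout. Ptges, the synthase of prostaglandin E that works with it, read 9955, 8979 and 8743 in wild type and 368, 355 and 319.7 in knockout. Ptgs1, the constitutive cyclooxygenase, read 618, 582 and 541 in wild type and 6249, 6070.0 and 6250.3 in knockout, and Tbxas1, the thromboxane synthase, 406, 398 and 421 in wild type and 5133, 5031 and 5077 in knockout. Ptgs2 and Ptges were lower in all knockout libraries (-5.58 ± 0.34 and -4.73 ± 0.15) and Ptgs1 and Tbxas1 higher (3.42 ± 0.15 and 3.63 ± 0.07). Over the whole list of 13, 8 were higher, 4 lower and 1 did not pass, with a median of 0.81.

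Energy metabolism moved less. Of 26 oxidative phosphorylation genes 15 were higher, none was lower and 11 did not pass (median 0.50). Fitted on the 6 libraries alone, 20 of them were higher and 3 lower. Of 18 glycolysis genes 10 were higher, 2 lower and 6 did not pass (median 0.46). Atp5b, a subunit of the ATP synthase, and Pgam1, a glycolytic mutase, rose by 0.87 and 1.05, while Pfkfb3, which drives glycolysis in activated cells, fell by 2.08. Cholesterol synthesis gave 8 higher, 1 lower and 14 not passing of 23, the cell cycle 12, 6 and 8 of 26, and the unfolded protein response 6, 7 and 7 of 20, with medians of 0.22, 0.22 and -0.01. Among 24 ribosomal protein genes 1 was higher (Rps2, 0.61 ± 0.22, adjusted p = 0.023 by limma), none was lower and 23 did not pass, and Rps2 did not pass once wild-type replicate 2 or 3 or knockout replicate 2 or 3 was left out. Fitted on the 6 libraries alone, 8 ribosomal genes were higher and 9 lower.

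Markers of the cells themselves differed as well. The bead target CD11c is encoded by Itgax, which read 9813, 10184 and 10341 normalised counts in wild type and 53698, 51733 and 51199.7 in knockout. It was higher in every knockout library (2.37 ± 0.07, adjusted p = 2.6e-16 by limma). Other genes of the dendritic cell lineage were lower, 7 of 10 measured, with 1 higher (Itgax) and 2 not passing, and a median of -2.65. Flt3, the growth factor receptor of dendritic cell precursors, read 569, 632 and 676 in wild type and 43.0, 48.5 and 41.0 in knockout. Zbtb46, the transcription factor that marks conventional dendritic cells, read 1986, 2046 and 2046 in wild type and 363, 369 and 383 in knockout. They differed by -3.79 ± 0.22 and -2.44 ± 0.08. Flt3 and Zbtb46 were thus read in both groups but were scarcer in the knockout libraries. The summed signal of the list was higher in knockout, at 157057 to 176258 normalised counts per wild-type library and 198176 to 200950 per knockout library. That sum includes Itgax, which rose, and H2-Aa and Cd74, which did not pass.

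Macrophage and monocyte markers gave 13 higher, 4 lower and 2 not passing of 19, with a median of 1.60 and a summed signal of 127814 to 143735 normalised counts per wild-type library and 374858 to 382735 per knockout library. Csf1r, the receptor of macrophage growth factor, read 4291, 4066 and 4168 normalised counts in wild type and 20729, 20883 and 19849.6 in knockout. Lyz2, which encodes lysozyme, read 36919, 34928 and 34091 in wild type and 244522, 233428 and 235902 in knockout. Both were higher in each knockout library, by 2.29 ± 0.06 and 2.75 ± 0.15. Adgre1, the marker F4/80, Maf, Ly6c2 and Cd14 were lower, by -0.72 ± 0.15, -1.18 ± 0.13, -2.15 ± 0.15 and -1.86 ± 0.12. These levels moved together with the lectin, scavenger and complement lists, and 3 complement genes, 1 lectin and 4 scavenger receptors are also members of the macrophage list. Their part in those results was not tested.

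Subset markers were divided. Of 15 cDC1 markers 6 were higher, 6 lower and 3 did not pass (median 0.12). All 6 higher markers rose over 2-fold, and 3 of the lower ones fell over 2-fold. The largest rise of the list was that of Clec9a (3.96), given above. The largest fall was that of Irf8, the transcription factor of cDC1 and plasmacytoid cells. Irf8 read 32320.4, 31679.9 and 31085 in wild type and 3912, 3683 and 3777 in knockout (-3.06 ± 0.05, adjusted p = 2.8e-19 by limma). Batf3, needed for cDC1 to develop, read 8235, 6858 and 6609 in wild type and 3898, 4245 and 4419.9 in knockout and fell by 0.78 (adjusted p = 0.039 by limma), a call that was lost with a replicate block (adjusted p = 0.054) and when any 1 of the 6 libraries was left out (adjusted p from 0.057 to 0.12). Of 13 cDC2 markers 6 were higher, 3 lower and 4 did not pass (median 0.03), and of 10 plasmacytoid markers 1 was higher, 8 were lower and 1 did not pass (median -1.54).

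Markers of lymphocytes, mast cells, basophils and neutrophils were mostly lower in knockout. Of 24 T cell markers 22 were lower, 1 was higher and 1 did not pass, and Cd3e, which encodes part of the CD3 complex, read 943, 896 and 882 normalised counts in wild type and 196, 169 and 198 in knockout. Of 11 natural killer and cytotoxic markers 10 were lower and 1 higher, and Il2rb, a receptor chain of interleukin-2, read 11829, 12221 and 12134 in wild type and 1614, 1647 and 1624 in knockout. B cell markers gave 8 lower and 1 higher (Cd22) of 9. Their median was -1.41 and 7 of them fell over 2-fold, while Cd22 rose by 2.19. With Cd22 included, their summed signal was 1136 to 1215 normalised counts per wild-type library and 995 to 1061 per knockout library. Mast cell and basophil markers gave 8 lower and 1 not passing of 9, and neutrophil markers 11 lower, 1 higher and 1 not passing of 13. The 1 higher neutrophil marker, Mmp8, was abundant enough that the summed signal of that list was higher in knockout, at 6776 to 7749 normalised counts per wild-type library and 9526 to 10068 per knockout library. Stromal and endothelial markers were divided, with 2 higher, 2 lower and 2 not passing of 6 and a median of 0.00. Of 3 epithelial and tumour-line markers 1 was higher, 1 lower and 1 did not pass, with a summed signal of 769.8 to 812 normalised counts per wild-type library and 2970.0 to 3160.4 per knockout library. Transcripts of these markers were thus read in both groups after the CD11c selection, and none of the lists was at 0 in either.

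**Figure D4:**
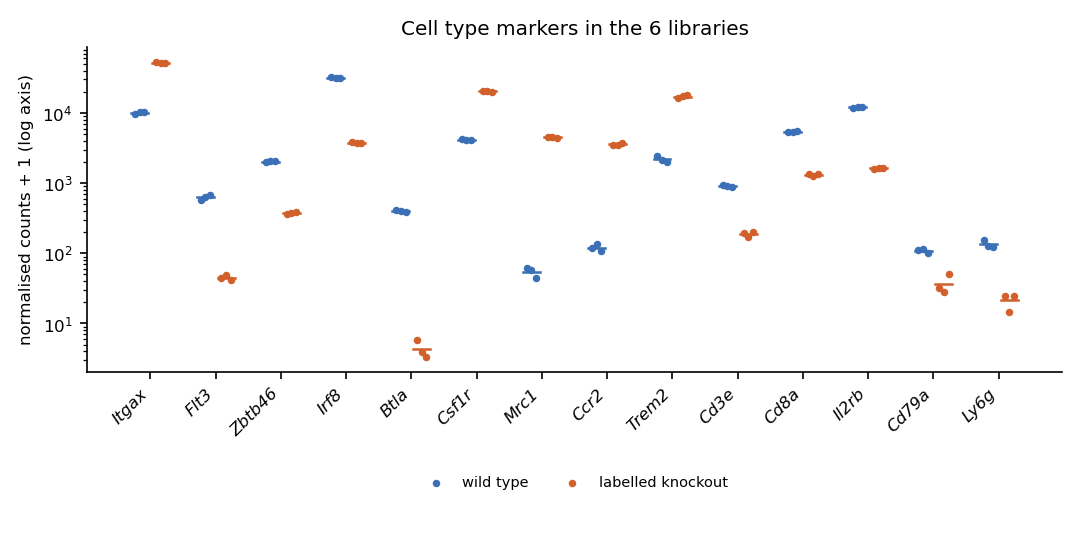
Points are libraries and bars group means, in normalised counts plus 1 on a log axis, for markers of dendritic cells (Itgax, Flt3, Zbtb46, Irf8, Btla), macrophages and monocytes (Csf1r, Mrc1, Ccr2, Trem2), T cells (Cd3e, Cd8a), natural killer cells (Il2rb), B cells (Cd79a) and neutrophils (Ly6g). Itgax and the macrophage and monocyte genes shown are higher in knockout (orange), and the other genes shown are lower. The genes shown do not stand for whole lists: of 19 macrophage and monocyte markers 13 were higher and 4 lower. The summed signal of the neutrophil markers was higher in knockout, unlike Ly6g.

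The genotype difference was then set beside that under LGG alone, from 6 other libraries. Across the 12741 genes the log2 differences under both treatments had a Pearson correlation of 0.961, given as a description because genes are not independent. Under LGG alone 7026 genes (55.1%) were called. The difference of the differences passed for 7 genes (0.0549% of those tested). Clic5, a chloride channel protein, was further below wild type under the combination (-3.55) than under LGG alone (-1.79), a gap of -1.75 ± 0.26, adjusted p = 0.012 by limma. Gimap4, a lymphocyte protein, and Serpina3f, a protease inhibitor, also fell further, with gaps of -0.65 ± 0.10 and -0.56 ± 0.09. Ccdc80 and Lrfn4 rose further, with gaps of 0.81 ± 0.12 and 0.77 ± 0.13. Foxd1, below the level required by the rule for named genes, was named after its values were seen, with a difference of 2.17 under the combination and -1.02 under LGG alone at no more than 11.6 normalised counts in any library of these groups. The count depended on the libraries in the fit: with 3 knockout libraries that stand apart left out (replicates 2 and 3 of anti-PD-1 alone, replicate 2 of LGG alone), 3739 genes passed. Without LGG knockout replicate 2 alone 38 passed, and without combination wild-type replicate 3, knockout replicate 2 or wild-type replicate 1 only 1, 2 and 3 did. It was 4 without knockout replicate 3 of the combination, wild-type replicate 1 or 2 of LGG or knockout replicate 3 of LGG. Ccdc80 kept its call with any 1 of the 12 libraries left out (adjusted p up to 0.047 by limma), but not in a fit of those 12 libraries alone (adjusted p = 0.0849), where Clic5 (0.071), Serpina3f (0.0553) and Lrfn4 (0.0893) lost theirs too. Clic5 lost its call without combination wild-type replicate 3 (adjusted p = 0.0541), and Gimap4 without that library (adjusted p = 0.0541) or combination knockout replicate 2 (adjusted p = 0.0606). Serpina3f lost its call without any 1 of 6 libraries and Lrfn4 of 9. With TMM scaling, which also lacked knockout LGG replicate 3, Lrfn4 did not pass (adjusted p = 0.108 by limma). Without that library alone Lrfn4 did not pass either (adjusted p = 0.0869 by limma).

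Against control IgG the genotype difference under the combination was of another size for many genes. Under IgG 4970 genes (39.0%) were called between the genotypes. The difference of the differences passed for 4312 genes (33.8%), 2526 of them (19.8%) in the direction of higher expression in knockout and 1786 (14.0%) lower. With the 3 libraries left out 7193 passed, 3905 higher and 3288 lower. Across genes the correlation of the differences under the combination and under IgG was 0.639. Of the 1498 genes over 2-fold higher in knockout under the combination, the gap from IgG was in the same direction for 1190, opposite for 4 and not passing for 304. Of the 1947 over 2-fold lower it was in the same direction for 912, opposite for 143 and not passing for 892. These genes were chosen by a difference that is part of the gap, which favours a gap of the same sign. Under IgG itself 712 of the higher and 1311 of the lower genes were already called in the same direction.

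Cytokine genes showed this plainly. Under IgG, Il1b read 637 ± 59.2 normalised counts in wild type and 487 ± 32.1 in knockout (SD, n = 3), a difference of -0.39 ± 0.12, against -5.79 ± 0.12 under the combination. For Csf3 the IgG levels were 1.05 ± 1.14 and 0.675 ± 0.653, so that the gene was near 0 in both genotypes there, and the gap between the differences was -10.55 ± 0.79, adjusted p = 3.2e-09 by limma. Hamp behaved likewise, at 4.11 ± 5.35 and 4.06 ± 0.553 under IgG. Il12b stood at 42.4 ± 6.56 and 12.5 ± 4.05 under IgG, a difference of -1.73 ± 0.39. Of the 29 cytokines the gap from IgG was lower for 21 and higher for 4.

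Of the named genes with the largest rises, Mrc1, Slc36a2 and Fn1 were high in both genotypes under IgG. Mrc1 read 8512 ± 289 in wild type and 11382 ± 942 in knockout under IgG (SD, n = 3), both above the 4521 ± 62.5 of knockout under the combination, whereas wild type under the combination was at 53.7 ± 9.60. Slc36a2 stood at 1210.4 ± 51.5 and 1584 ± 24.6 under IgG and Fn1 at 9599.6 ± 269 and 11399 ± 564. The gaps between the genotype differences were 5.97 ± 0.29 for Mrc1, 8.55 ± 0.36 for Slc36a2 and 5.37 ± 0.26 for Fn1. In these 3 genes wild type under the combination was the lowest of the 4 groups. LGG alone gave the same order, with Mrc1 at 41.7 ± 6.96 in wild type and 5470.3 ± 1626 in knockout.

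Other differences were already present under IgG. Flt3 differed by -3.63 ± 0.22 under IgG and -3.79 ± 0.22 under the combination. The median of the T cell markers was -3.57 under IgG and -2.26 under the combination, and the gap was in the direction of a smaller deficit for 16 of the 24 markers and of a larger one for 2. Macrophage markers had a median of -0.09 under IgG, and 12 of 19 had a gap upwards. The type I interferon list had a median of -0.54 under IgG, and 27 of 36 had a gap downwards.

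**Figure D5:**
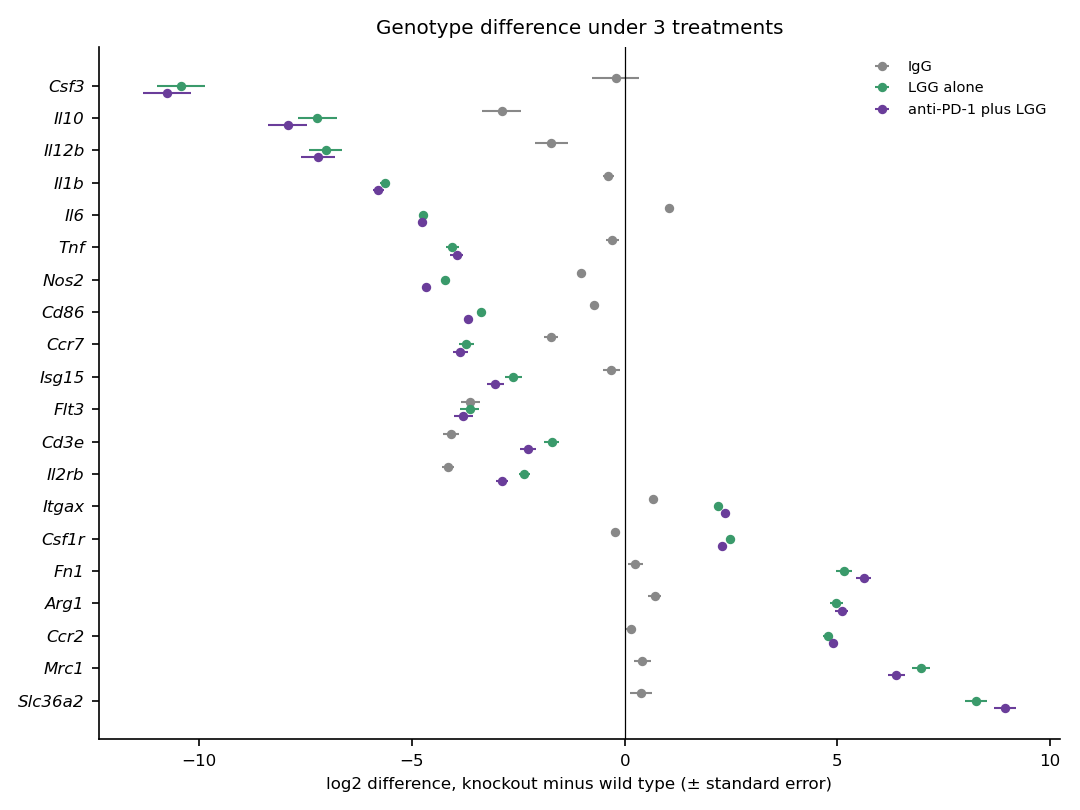
Points give the log2 difference of knockout minus wild type and bars its standard error, for 20 genes under IgG (grey), LGG alone (green) and anti-PD-1 plus LGG (purple), each from 6 libraries of its own in 1 limma fit. Green and purple lie close together, and grey lies near 0 for Csf3, Fn1, Ccr2, Mrc1 and Slc36a2 but at -3.63 for Flt3.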

How the data were processed

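Total RNA of CD11c+ cells was sequenced in 24 samples, 8 groups of 3. The authors deposited 1 table of normalised signal for 12767 genes: the read count of a gene over a size factor of the library. The submitters' processing notes name STAR 2.4.0 for alignment to mm10, HTSeq 0.6.1 for counting and DESeq2 (version not given). In 23 libraries the values were whole multiples of 1 step, which returned whole reads for 100% of values within a tolerance of 0.001. The values of knockout LGG replicate 3 were whole multiples of a step as well. That step lay so near 1 that a check against rounded values refused it. The library was therefore left out of the count-based alternatives, which were TMM scaling, edgeR and DESeq2. Positions came from an annotation of the same build, which matched 12759 genes.

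A pseudocount of 1 was added to the values, log2 was taken, and genes with a mean below 10 were left out. The test was limma 3.58.1 in R 4.3.3 with 1 mean per group over all 24 libraries and moderation with a trend and robust variances. Tests were two-sided, with Benjamini-Hochberg adjustment over all genes tested, and a gene was called at an adjusted p below 0.05. Fold changes on this scale understate low genes. The genotype differences under the combination, LGG alone and IgG share no library. The members and gene lists were chosen with earlier results of these data known. The rule for named genes took the 12 largest called falls and 12 largest called rises (mean of 20 or more in the higher group, groups not overlapping, no predicted genes or receptor segments), 4 members with the smallest p of each list, a fixed set of pathway genes, and up to 5 genes in each direction for the differences of differences. Further members are given as values of their lists. Some genes that the rule took are not reported here. The scripts were tested on simulated data.

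Results were recomputed with a pseudocount of 8, without the filter, with TMM scaling, with a replicate block, with edgeR 4.0.16, with DESeq2 1.42.0, with only the libraries compared, without 3 knockout libraries that stand apart, and without each library in turn. Deviations of same-numbered wild-type and knockout libraries correlated at -0.05, 0.02 and -0.05. These values gave no sign of pairing by number but cannot show that it was absent.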

Additional observations from a re-analysis of the deposited data

Results flagged for a closer look

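The genotype difference under the combination differed from that under LGG alone for 7 genes by limma (adjusted p under 0.05 for the difference of the differences), and those given here were Clic5 (-1.75), Gimap4 (-0.65), Serpina3f (-0.56), Ccdc80 (0.81) and Lrfn4 (0.77).

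It differed from that under IgG for 4312 genes. The named genes with the largest gaps downwards were Csf3 (-10.55), Hamp (-8.71), Barx1 (-6.57), Tm4sf1 (-6.39) and Plat (-6.29). Those with the largest gaps upwards were Slc36a2 (8.55), Dlk2 (6.15), Mrc1 (5.97), Fn1 (5.37) and Wscd1 (5.30). For Dlk2, an epidermal growth factor-like membrane protein, the direction itself turned: knockout was below wild type under IgG (-3.82 ± 0.38) and above it under the combination (2.32 ± 0.38). Wscd1 turned in the same way, from -3.42 ± 0.42 to 1.88 ± 0.42, at no more than 12.9 normalised counts in any library of the combination.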

How the results depend on the processing

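The count of genes called under the combination stayed within 1.5 times of 7401 in each alternative, from 6700 with 1 library left out to 9898 in a fit of the 6 libraries alone. Of 2918 values of 187 named genes under the alternatives, 2860 kept direction and call, 39 lost the call, 14 gained it and 5 changed sign. The sign changed for Tbk1 from 0.02 to -0.0146 with TMM scaling, -0.0154 with edgeR and -0.00101 with DESeq2. With 1 library left out Tbk1 ranged from -0.0185 to 0.0509 and Cgas from -0.132 to 0.0134. Neither gene passed the test under all libraries. With the replicate block 7236 genes were called, 3782 higher and 3454 lower; among named genes the block removed the calls of Batf3 and of the Lrfn4 gap from LGG. Barx1 lost its call for the gap from IgG with edgeR (-5.43, adjusted p = 0.95), where it has almost no reads in 3 of the 4 groups.

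Gaps between treatments depended more on the fit. For the gap from LGG 7 genes became 4 with TMM scaling, 3 in a fit of the 12 libraries compared, 3739 without the 3 libraries that stand apart, 59 with DESeq2 and 1 to 38 with 1 library left out. TMM scaling and DESeq2 also lacked knockout LGG replicate 3, and without that library alone the count was 4 as well. For the gap from IgG 4312 genes became 7387 (4017 higher, 3370 lower) in the 12 libraries compared and 7193 (3905 higher, 3288 lower) without the 3 libraries. With 1 library left out the IgG counts ranged from 3862 to 3972, with 2279 to 2334 higher and 1572 to 1646 lower. For the combination they ranged from 6700 to 6887, with 3505 to 3581 higher, 3179 to 3306 lower and 3338 to 3458 over 2-fold. The cause was not tested. The lowest listed mean was 9.57, below the filter at 10. Tested genes near that filter rest on few reads per library, which limits their precision.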
